A study of Homo sapiens with 4 samples.

Results

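Ribosome-protected RNA fragments of the human leukemia lines K562 and HL60 were set against each other. They are 2 of the 4 libraries of the series, chosen by their cell line label alone, with 1 library a side and no treatment in either. K562 is a single line that came from a patient's chronic myeloid leukemia, is known for erythroid features, and carries the BCR-ABL1 fusion. HL60 is a single line grown from an acute leukemia of promyelocyte-like cells, and is known for an amplified MYC gene. Per the labels, both lines were kept in IMDM medium with serum and lysed with cycloheximide, a drug that holds ribosomes in place. No healthy blood cell was part of the comparison, and a difference between the lines cannot be told apart from a difference between their libraries.

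In ribosome profiling, a nuclease digests exposed RNA and the short stretch shielded by each ribosome is sequenced, so that signal over a gene reflects how much of its RNA was being read into protein. Red cell precursors devote their translation to globins, to the enzymes that build heme, and to the membrane skeleton and surface glycoproteins of the red cell, under regulators such as GATA1 and KLF1. Promyelocytes instead fill primary granules with myeloperoxidase and serine proteases, under SPI1 (PU.1) and C/EBP factors, and their descendants acquire an NADPH oxidase, integrins and pathogen receptors.

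Levels are in TPM, a measure of signal per transcript length, summed per gene and scaled so that the median gene is alike in both libraries. A gene was called when log2(scaled TPM + 1) differed by at least 2 and the higher library held at least 600 aligned bases on it. Differences are K562 minus HL60 on that log2 scale. Aligned bases divided by 29, the commonest number of aligned bases among sparsely covered transcripts and so the likely length of 1 footprint, gave footprint equivalents, and 95% intervals are Poisson intervals of these, which cover counting error only. The K562 library held 473 Mb of aligned bases and the HL60 library 973 Mb. No p-value is given, since a single library has no replicate spread.

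Of 10500 protein-coding genes at a scaled TPM of at least 1 in either library, 980 were called higher in K562, which is 9.33%, and 1252 were called higher in HL60, which is 11.9%. The median difference over all 10500 genes was 0.06, a value that other scalings placed between -0.19 and 0.40, and 5290 of them lay within 1 log2 unit. Aligned bases, which are not divided by length, also stood apart by at least 1 log2 unit for 953 of the 980 genes and for 1215 of the 1252. Many calls set a level against a listing at 0: 385 of the genes higher in K562 were listed at 0 in HL60, and 905 of those higher in HL60 were listed at 0 in K562. Such a listing can be a failed estimate. The ribosomal protein gene RPS27A, which every cell uses, was listed at 0 in K562, against 57.5 TPM in HL60. NDUFA4, a respiratory chain subunit, was at 0 in K562, against 446 TPM in HL60, and TOMM6, of the mitochondrial import pore, was at 0 in K562, against 340.0 TPM in HL60. TOMM6 lies within the span of AL365205.1 on the same strand, an entry with 59.5 TPM in K562 and 0.024 TPM in HL60. NDUFA4 and TOMM6 were chosen after their values were seen. No fold is given against a listing at 0. In the gene lists below, a member counts when it reached 1 TPM in either library. A member that did so in 1 library alone leans towards that library by construction, so counts and medians of lists are descriptions. Each count of called members is to be read beside the 9.33% and 11.9% of all protein-coding genes.

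**Figure D1:**
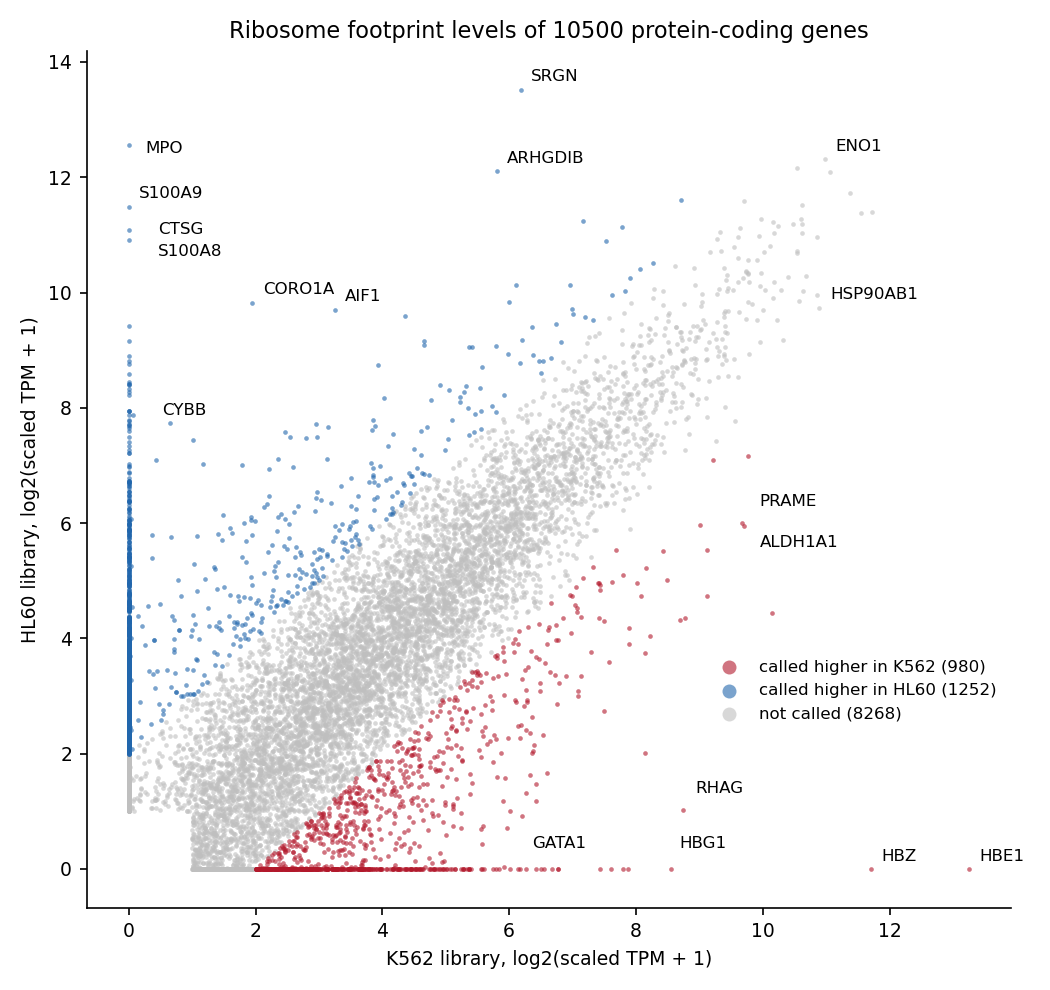
Scatter plot of log2(scaled TPM + 1) in the K562 library, on the horizontal axis, and in the HL60 library, on the vertical axis. Each point is 1 of 10500 protein-coding genes, coloured by call, and genes listed at 0 lie along an axis. HBE1 and HBZ lie far right on the horizontal axis, while MPO, S100A9, CTSG and S100A8 lie high on the vertical axis.

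Markers of the labelled lineages lay on opposite sides. Of 12 erythroid markers, 9 reached a scaled TPM of 1 in K562 and 0 did in HL60, with summed levels of 13999.8 TPM in K562 and 0.618 TPM in HL60. ALAS2, AHSP and HBG2 were at 0 in K562. Of 11 promyelocytic and granulocytic markers, 1 reached that level in K562 and 10 did in HL60, with summed levels of 14.3 TPM in K562 and 9716 TPM in HL60. PRSS57 was at 0 in both, and the K562 sum was nearly all MS4A3. Of 6 monocytic markers, 1 reached 1 TPM in K562 and 5 did in HL60, summing to 41.1 TPM in K562 and 605 TPM in HL60. Most of both sums was LYZ, a lysozyme that granulocytes also make, at 40.4 TPM in K562 and 534 TPM in HL60. Among 5 megakaryocytic markers, 1 was called each way. ITGA2B, a platelet integrin chain, had 17.8 TPM in K562 and 3.50 TPM in HL60, and PPBP, a platelet chemokine, was at 0 in K562, against 5.55 TPM in HL60. PF4 and GP9 were at 0 in both. Among 6 lymphoid markers, 1 was called higher in K562 and 2 in HL60. NKG7 and CD79A were at 0 in K562, against 8.76 and 3.42 TPM in HL60. CD3D, of the T cell receptor complex, had 45.2 TPM in K562 and 3.20 TPM in HL60, while CD3E and MS4A1 were at 0 in both.

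The highest K562 levels among genes listed at 0 in HL60 were those of embryonic and fetal globins. Of 11 genes in a list of globins and the alpha globin chaperone, 5 reached 1 TPM, all of them in K562, and 4 were called. HBE1, the embryonic beta-like chain, had 9760.01 TPM in K562 (95% interval 9699 to 9821), against a listing at 0 in HL60. HBZ, the embryonic alpha-like chain, had 3342 TPM in K562, against 0 in HL60, with 99.9% of its aligned bases on 1 exon. HBG1, a fetal gamma chain, had 373 TPM in K562, and HBD, the delta chain, had 12.3 TPM, each against 0 in HL60. HBB, the adult beta chain, was below the call at a difference of 1.65. HBG2, HBA1 and HBA2 were at 0 in both libraries. HBG1 and HBG2 are near-identical copies, so the split of footprints between them is uncertain. HBA1 and HBA2 are near-identical as well, but both were at 0, so a split alone does not describe them. Whether reads of HBA1 and HBA2 were lost was not tested, and their level in K562 is not known. HBE1, HBZ and HBG1 share exons with other annotated genes. In K562 the globin list held 1.06% of the aligned bases on nuclear protein-coding genes, against 0 in HL60.

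Membrane genes of the red cell followed the globins. Of 16 list members at 1 TPM or more, 10 were called higher in K562 and 0 in HL60, with a median difference of 3.35, beside 0.06 over all protein-coding genes. RHAG, the Rh-associated glycoprotein, had 428 TPM in K562 (95% interval 421 to 435) and 1.03 TPM in HL60 (0.804 to 1.31), a 414-fold level and the largest difference of any gene above 0 in both after CORO1A and CYBB. The glycophorins GYPB and GYPE, which resemble each other closely, had 84.4 and 76.3 TPM in K562, each against 0 in HL60. ANK1, the ankyrin that anchors the membrane skeleton, had 26.6 TPM in K562 and 0.0753 TPM in HL60. Genes used more widely were not called: the transferrin receptor TFRC had 333 TPM in K562 and 307 TPM in HL60, and glycophorin C, GYPC, had 51.7 TPM in K562 and 53.7 TPM in HL60. Their signs turn with the scaling. SLC4A1, the anion exchanger of mature red cells, was at 0 in both.

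Among 15 erythroid transcription factor genes, 4 were called higher in K562 and 0 in HL60, with a median difference of 1.85. HEMGN, a nuclear protein of blood progenitors, had 194 TPM in K562, against 0 in HL60. GATA1 had 89.4 TPM in K562 (95% interval 85.6 to 93.3), spread over all 6 of its exons, against 0 in HL60. KLF1, the activator of adult globin and membrane genes, had 46.1 TPM in K562 and 0.609 TPM in HL60, a 75.6-fold level. GFI1B, a repressor of red cell and platelet precursors, had 17.2 TPM in K562 and 0.0123 TPM in HL60. TAL1, their partner, stayed below the call at 2.64 TPM in K562 and 0.0087 TPM in HL60. MYB, a progenitor factor, and BCL11A, a repressor of fetal globin, ran the other way without a call: MYB had 18.5 TPM in K562 and 70.2 TPM in HL60, and BCL11A had 0.861 TPM in K562 and 5.96 TPM in HL60.

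Heme enzymes were divided along the pathway. Of 16 genes at 1 TPM or more, 6 were called higher in K562 and 2 in HL60, with a median difference of 1.01. Of the late enzymes, PPOX had 38.6 TPM in K562 and 8.22 TPM in HL60, and FECH, the ferrochelatase that inserts the iron, had 37.3 TPM in K562 and 5.13 TPM in HL60. The breakdown enzymes HMOX1, BLVRA and BLVRB were also called higher in K562, and BLVRB, a biliverdin reductase, had 438 TPM in K562 and 19.5 TPM in HL60. The first steps ran the other way. ALAS1, the housekeeping form of the first enzyme, had 43.1 TPM in K562 and 237 TPM in HL60, and ALAS2, its erythroid form, was at 0 in both. ALAD, the next enzyme, was listed at 0 in K562, against 16.5 TPM in HL60. Of 13 iron genes, 1 was called higher in K562 and 0 in HL60, beside 9.33% and 11.9% of all protein-coding genes. The 1 called was SLC40A1, the iron exporter ferroportin, at 9.61 TPM in K562 and 0 in HL60.

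The promoters of 3 of these genes are shown because their products are the regulators named above, GATA1 and KLF1, and the membrane gene with the largest difference, RHAG. Each line gives the 150 bases before the RefSeq transcription start on GRCh38.p14, read 5′ to 3′. Capitals mark matches on either strand to GATAA, the core bound by GATA factors, CCACCC, the core bound by KLF1, TATAAA or CCAAT, motifs chosen with these sequences in view.
GATA1, chrX:48786440-48786589, plus strand: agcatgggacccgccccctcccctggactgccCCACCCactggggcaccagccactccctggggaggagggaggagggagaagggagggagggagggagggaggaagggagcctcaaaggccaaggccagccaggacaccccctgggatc
KLF1, chr19:12887202-12887351, minus strand: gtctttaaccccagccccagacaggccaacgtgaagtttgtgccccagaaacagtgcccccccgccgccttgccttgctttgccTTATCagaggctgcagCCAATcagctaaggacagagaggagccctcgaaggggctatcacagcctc
RHAG, chr6:49636840-49636989, minus strand: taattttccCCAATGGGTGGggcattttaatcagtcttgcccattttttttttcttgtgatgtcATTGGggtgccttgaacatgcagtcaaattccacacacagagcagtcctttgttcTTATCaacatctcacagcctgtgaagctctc
KLF1 and RHAG each held a GATAA match on the minus strand, and GATA1 and RHAG each held a CCACCC match. In the 250 bases before the start, GATAA was present in 12.4% of promoters of genes called higher in K562, 13.2% of those called higher in HL60, 12.6% of all protein-coding genes at 1 TPM or more, and 21% of all 27305 promoters at hand. CCACCC was present in 38.9%, 34.2%, 33.8% and 30.4% of the same 4 sets. Promoters were at hand for 749 of 919 genes higher in K562 and 1015 of 1230 higher in HL60. A match is a description of letters and not a binding site.

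HL60 held its highest signals on granule proteins. Of 17 primary granule genes at 1 TPM or more, 0 were called higher in K562 and 16 in HL60, with a median difference of -6.88. Together the list held 0.0327% of coding aligned bases in K562 and 4.52% in HL60. Both the count and the share include some proteins of eosinophil granules and some from outside granules. Of the eosinophil proteins, RNASE2 was at 0 and PRG2 at 4.13 TPM in K562, against 307 and 138 TPM in HL60. MPO, myeloperoxidase, was listed at 0 in K562, against 6039.5 TPM in HL60 (95% interval 6025 to 6054) over all 12 of its exons. CTSG, the protease cathepsin G, was at 0 in K562, against 2173 TPM in HL60. AZU1, an inactive protease homologue with antimicrobial action, and the serine proteases PRTN3 and ELANE, which lie side by side on chromosome 19, were at 0 in K562, against 320, 153 and 98.6 TPM in HL60. BPI, which kills Gram-negative bacteria, and the protease inhibitor CST7 were also at 0 in K562, against 350 and 339.98 TPM in HL60. SRGN, the proteoglycan that packs granule contents, was present in both libraries, at 71.5 TPM in K562 and 11736 TPM in HL60, and it alone made up 1.61% of coding aligned bases in HL60. MS4A3, a surface protein of granulocyte precursors, had 14.3 TPM in K562 and 427 TPM in HL60. EPX, the eosinophil peroxidase, was the 1 member without a call.

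A list of later neutrophil genes, which holds surface receptors and S100 proteins besides granule proteins, was split in HL60. Of 11 genes at 1 TPM or more, 8 were called higher in HL60 and 0 in K562, but LTF, LCN2, CAMP and MMP8, the classic secondary granule proteins, were at 0 in both libraries. S100A9 and S100A8, which form calprotectin, were at 0 in K562, against 2878 and 1931 TPM in HL60. CEACAM6, an adhesion molecule, had 1.25 TPM in K562 and 129 TPM in HL60.

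The promoters of 3 granule genes are shown because their products fill the primary granules and their signal was on the HL60 side alone. The layout is as above, and capitals mark matches to GAGGAAG, a core bound by PU.1, TTGCNNAA, a core bound by C/EBP factors, TGTGGT, bound by RUNX factors, or TATAAA.
AZU1, chr19:827687-827836, plus strand: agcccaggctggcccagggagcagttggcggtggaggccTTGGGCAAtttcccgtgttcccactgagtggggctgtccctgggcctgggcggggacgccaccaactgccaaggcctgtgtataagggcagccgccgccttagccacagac
PRTN3, chr19:840849-840998, plus strand: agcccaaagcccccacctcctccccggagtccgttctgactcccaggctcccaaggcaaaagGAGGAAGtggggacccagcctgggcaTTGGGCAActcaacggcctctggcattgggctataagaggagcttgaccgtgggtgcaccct
CTSG, chr14:24576251-24576400, minus strand: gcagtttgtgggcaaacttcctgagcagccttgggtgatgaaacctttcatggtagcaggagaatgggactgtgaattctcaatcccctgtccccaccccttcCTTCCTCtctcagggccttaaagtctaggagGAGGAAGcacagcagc
PRTN3 and CTSG held GAGGAAG, AZU1 and PRTN3 held TTGCNNAA on the minus strand, and none of the 3 held TGTGGT or TATAAA in this window. Each set of promoters was marked for its own motifs only, so capitals cannot be compared between the sets. Unmarked matches were present: the GATA1 promoter also held the PU.1 core, and the CTSG promoter also held the KLF1 core. GAGGAAG was present in 13.1% of promoters of genes called higher in K562, 16.4% of those called higher in HL60, 12% of all protein-coding genes at 1 TPM or more and 11% of all promoters. TTGCNNAA was present in 6.81%, 7.78%, 6.22% and 9.13%, and TGTGGT in 6.54%, 9.95%, 7.47% and 10.9% of the same sets. TATAAA was present in 8.81%, 7.68%, 5.67% and 11.1%, and CCAAT in 34.7%, 34.7%, 36.3% and 33.0%. The median GC content was 66.4%, 63.6%, 64.8% and 58%.

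**Figure D2:**
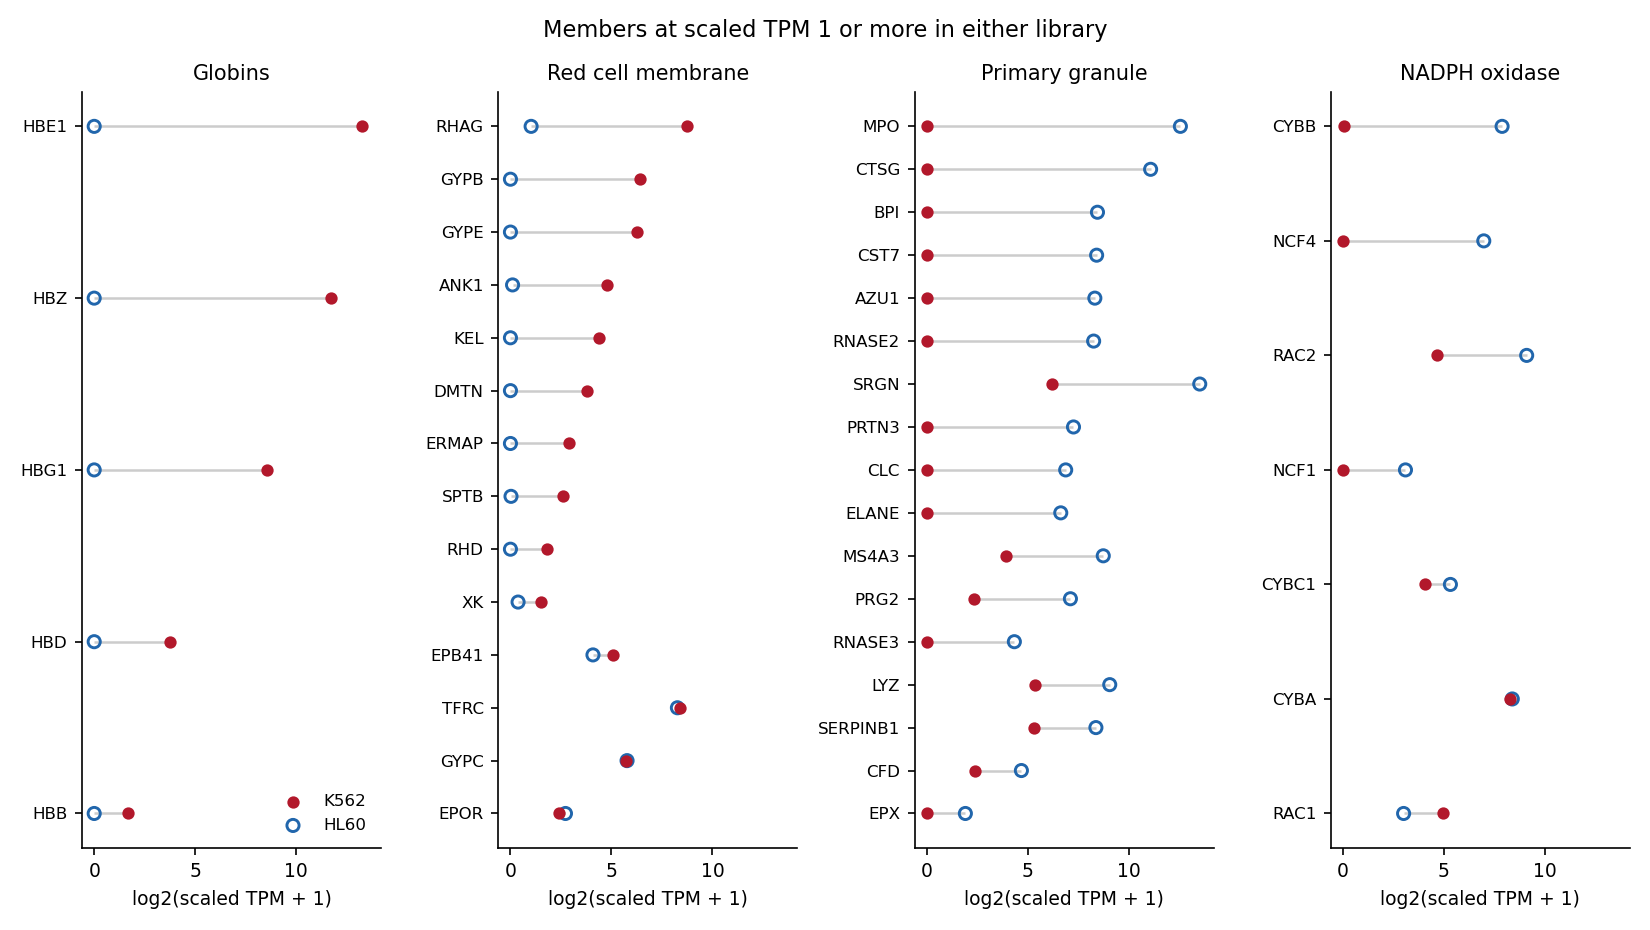
Levels of list members, as log2(scaled TPM + 1), in the K562 library (filled red) and the HL60 library (open blue), for members at 1 TPM or more in either. Lines join the values of 1 gene, and 3 members are not shown. Globins and most red cell membrane genes lie right in K562 and near 0 in HL60, and primary granule genes lie the other way.

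Regulators of the granulocyte line separated in the same direction as the granules. Of 14 myeloid transcription factor genes, 0 were called higher in K562 and 8 in HL60, with a median difference of -2.44. CEBPE, required for late granules, SPI1, the PU.1 factor, and GFI1, a repressor of neutrophil precursors, were at 0 in K562, against 218, 207 and 65.2 TPM in HL60. CEBPA, which starts the granulocyte program, had 0.0239 TPM in K562 and 15.1 TPM in HL60. VDR, the vitamin D receptor, had 0.722 TPM in K562 and 31.3 TPM in HL60. EGR1 and RARA, the retinoic acid receptor alpha, were not called, RARA at 4.52 TPM in K562 and 2.12 TPM in HL60.

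Of 8 subunits of the phagocyte NADPH oxidase, 0 were called higher in K562 and 5 in HL60. CYBB, the catalytic gp91 subunit, had 0.0461 TPM in K562 (95% interval 0.0101 to 0.131) and 234 TPM in HL60 (232 to 237). The cytosolic subunits NCF1 and NCF4 were at 0 in K562, against 7.55 and 125 TPM in HL60, where NCF1 has near-identical pseudogenes that could take its reads. RAC2, the blood cell GTPase of the complex, had 24.2 TPM in K562 and 546 TPM in HL60. CYBA, the partner of several oxidases, had 304 TPM in K562 and 333 TPM in HL60, a sign that turns when TPM is rescaled over protein-coding genes. RAC1, the widely used GTPase, was below the call with 30.3 TPM in K562 and 7.02 TPM in HL60.

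Receptors and adhesion genes of phagocytes were mostly read in HL60. Of 21 leukocyte integrins and surface antigens, 2 were called higher in K562 and 13 in HL60, with a median difference of -3.10. ITGB2, the common beta chain of leukocyte integrins, ANPEP, the CD13 antigen, LAIR1, an inhibitory receptor, CLEC12A, a lectin receptor, and CD33 were at 0 in K562, against 245, 209, 109, 104 and 64.8 TPM in HL60. KIT, the stem cell factor receptor, and CD69, an activation antigen, were the 2 called higher in K562. KIT had 4.92 TPM in K562, against 0 in HL60, and CD69 had 21.9 TPM in K562 and 4.17 TPM in HL60. CD4, a T cell coreceptor also found on monocytes, was at 0 in K562, against 244 TPM in HL60. Of 15 Fc receptor and Toll-like receptor genes, 9 were called higher in HL60, among them the signalling adaptors TYROBP and FCER1G, at 0 in K562, against 180 and 101 TPM in HL60. LYN, a Src family kinase, was the 1 called higher in K562, with 8.84 TPM over 13 exons, against 0 in HL60. Of 10 inflammasome genes, 8 were called higher in HL60 and 0 in K562. PYCARD, the adaptor that joins sensors to caspases, was at 0 in K562, against 160 TPM in HL60, and CASP4, an inflammatory caspase, had 0.0212 TPM in K562 and 37.4 TPM in HL60.

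Of 25 actin regulators of blood cells, 0 were called higher in K562 and 17 in HL60, with a median difference of -3.26. All 25 were lower in K562, but TMSB10 and PFN1 turn higher when TPM is rescaled over protein-coding genes. CORO1A, a coronin of leukocytes, had 2.86 TPM in K562 (95% interval 2.39 to 3.40) and 907 TPM in HL60 (900 to 914), a difference of -7.88. ARHGDIB, which keeps small GTPases inactive in blood cells, had 54.9 TPM in K562 and 4391 TPM in HL60. GMFG, a glia maturation factor of leukocytes, and MYO1G, a membrane myosin, were at 0 in K562, against 683 and 105 TPM in HL60. TMSB4X, the main thymosin, was listed at 0 in K562, against 384 TPM in HL60, with 99.8% of its aligned bases there on 1 exon. Widely used members were within the call: profilin, PFN1, had 1006 TPM in K562 and 1291 TPM in HL60, and cofilin, CFL1, had 781 TPM in K562 and 1544 TPM in HL60.

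Intermediate filaments showed the opposite direction. Of 12 keratins, vimentin and lamins at 1 TPM or more, 6 were called higher in K562 and 0 in HL60, with a median difference of 2.17. VIM, vimentin, had 556 TPM in K562 and 45.6 TPM in HL60, a 12.2-fold level. KRT18 and KRT8, which pair in simple epithelia, had 237 and 139 TPM in K562, against 13.9 and 9.14 TPM in HL60. KRT19 had 83.2 TPM in K562 and 3.42 TPM in HL60. Both keratins of the pair were thus above 0 in HL60. The epithelial adhesion gene EPCAM had 88.7 TPM in K562 and 7.51 TPM in HL60, while 11 of 16 epithelial and fibroblast genes were not called higher in K562. The lamins LMNA and LMNB2 stayed within 1 log2 unit, and LMNB1 had 145 TPM in K562 and 349 TPM in HL60.

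Antigen presentation through MHC class I was lower in K562. Of 18 genes, 0 were called higher in K562 and 10 in HL60, with a median difference of -2.54. HLA-B had 19.5 TPM in K562 and 775 TPM in HL60, and B2M, the light chain, had 417 TPM in K562 and 3122 TPM in HL60. The immunoproteasome subunits PSMB8 and PSMB9 had 0.568 and 2.01 TPM in K562, against 213 and 59.5 TPM in HL60. HLA genes vary between people and resemble each other, so reads that differ from the reference could be lost or shared unequally, and this was not tested. Of 19 interferon-stimulated genes, 1 was called higher in K562 and 3 in HL60, beside 9.33% and 11.9% of all protein-coding genes. The 1 was IFITM1, a membrane protein that blocks virus entry, at 297 TPM in K562 and 15.5 TPM in HL60, while its neighbour IFITM3 was at 0 in K562, against 3.01 TPM in HL60.

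Cancer-testis antigens, germline genes that tumours switch on, were read mainly in K562. Of 19 genes, 8 reached 1 TPM, 7 were called higher in K562 and 1 in HL60. PRAME had 817 TPM in K562 and 63.0 TPM in HL60. MAGEC1, MAGEC2, CTAG2 and MAGEA6 had 26.8, 25.6, 23.2 and 22.2 TPM in K562, each against 0 in HL60, and MAGEA3 and MAGEA6 are near-identical copies. MAGEB2 ran the other way, with 2.68 TPM in K562 and 14.9 TPM in HL60.

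**Figure D3:**
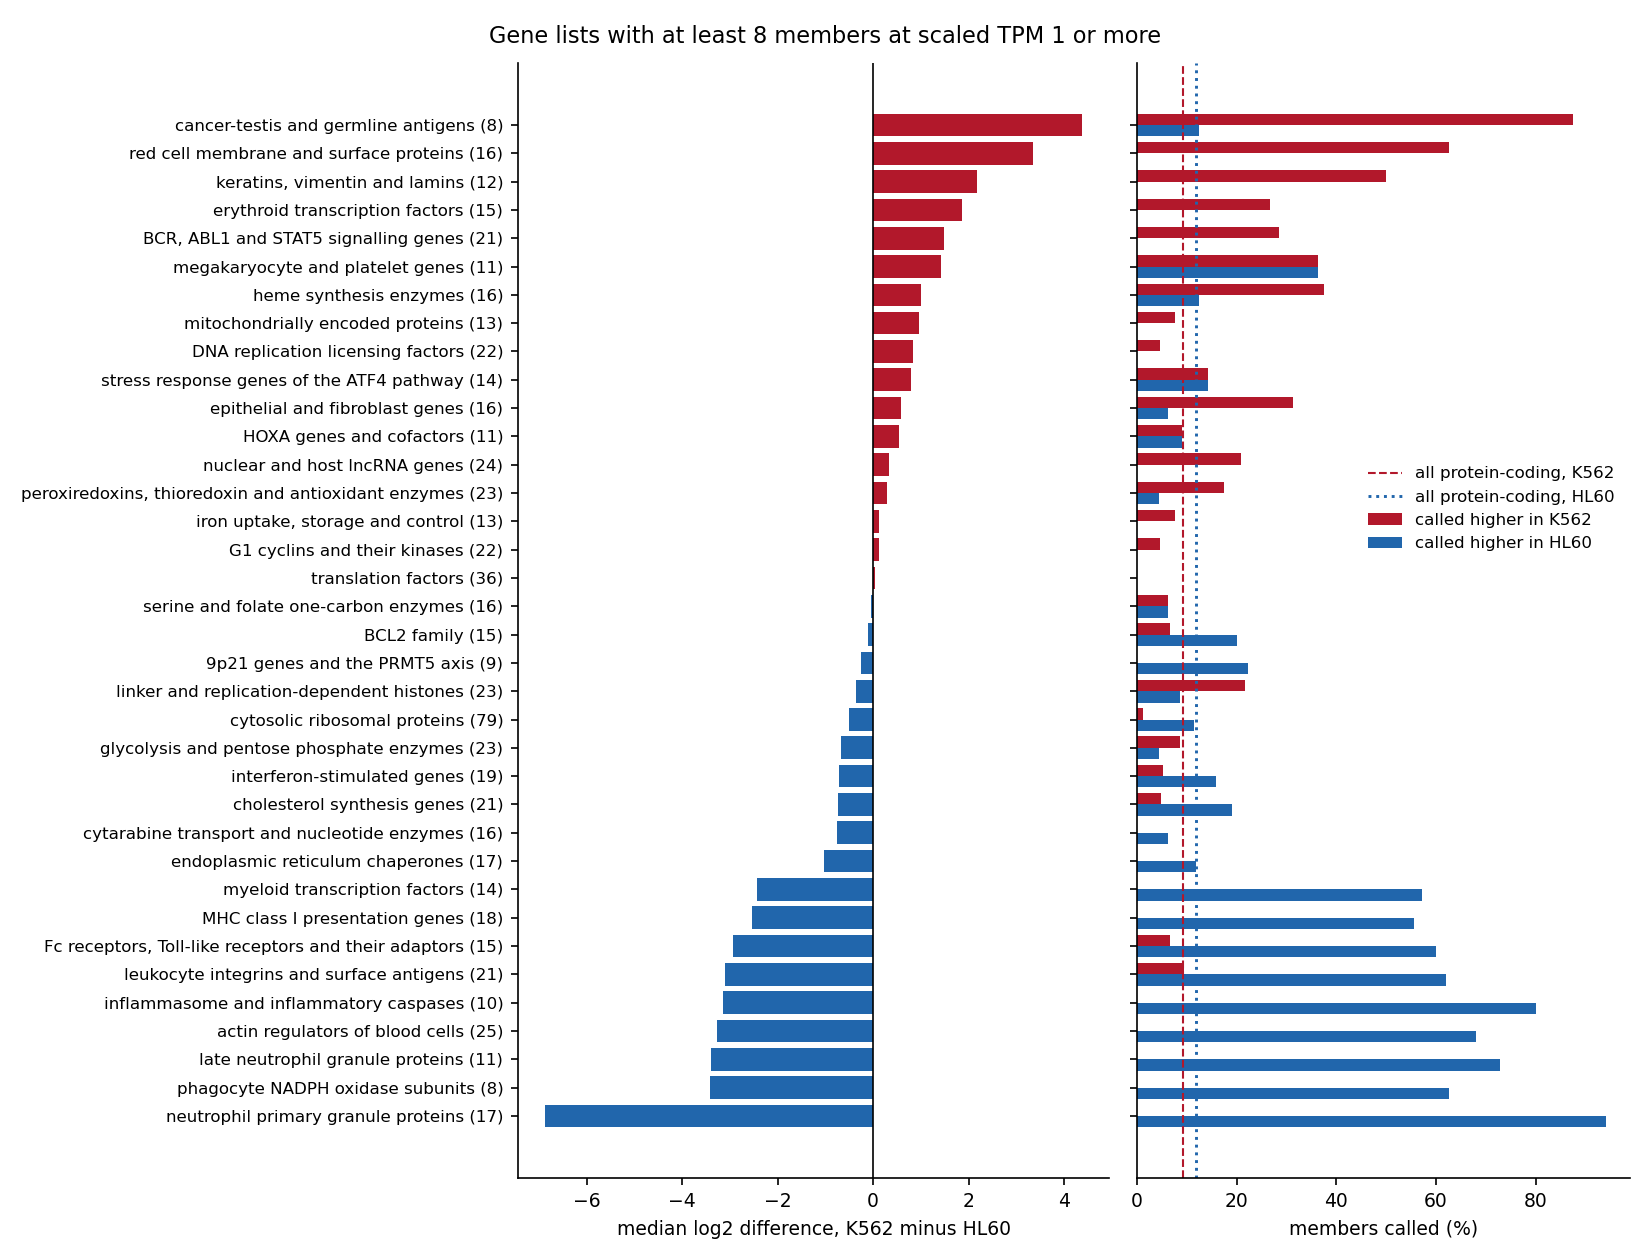
Median difference in log2(scaled TPM + 1), K562 minus HL60, on the left, and the percentage of members called higher in K562 (red) or HL60 (blue) on the right, for gene lists with at least 8 members at 1 TPM or more, of which 1 is not shown. Vertical lines give the percentages over all protein-coding genes, 9.33% and 11.9%. Primary granule genes have the lowest median, -6.88, and cancer-testis genes the highest shown, 4.38.

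BCR, ABL1 and STAT5 signalling genes, which include the fusion partners, their adaptors and STAT5 targets, had 6 of 21 members called higher in K562 and 0 in HL60, with a median difference of 1.49. PIM1, a kinase induced by STAT5, had 79.1 TPM in K562 and 2.08 TPM in HL60, a 38.0-fold level. STAT5A itself had 31.3 TPM in K562 and 2.02 TPM in HL60, and STAT5B had 15.1 TPM in K562 and 4.12 TPM in HL60. SOCS2, a feedback inhibitor of that pathway, had 11.9 TPM in K562, against 0 in HL60. Not all STAT5 targets lay on that side: CCND2, a G1 cyclin, had 31.9 TPM in K562 and 81.0 TPM in HL60, and CISH, another feedback inhibitor, had 2.88 TPM in K562 and 1.75 TPM in HL60, neither called. The adaptors CRKL, CRK and GAB2 were called higher in K562. GRB2 had 27.9 TPM in K562 and 68.8 TPM in HL60, below the call.

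As a whole gene, ABL1 was below the call at 10.0 TPM in K562 and 3.02 TPM in HL60, and BCR had 4.19 TPM in K562 and 9.72 TPM in HL60. The sign for BCR turns with aligned bases not divided by length, where its difference was 1.03. The fusion keeps the upstream part of BCR and joins it to ABL1 without its first exon, so exons were compared after these gene values were seen. The BCR boundary was placed after the last stretch with 10 or more footprint equivalents in K562, so a low K562 value beyond it follows from that choice and is only a description. In BCR on chromosome 22 (hg38), the 14 covered stretches from 23180365 to 23291131 held 456 footprint equivalents in K562 and 402 in HL60. In K562, 9 of these 14 held signal, against 14 in HL60. The 5 covered stretches downstream, from 23292541 to 23314714, held 0.966 in K562 and 50.0 in HL60. After division by the library factors the upstream part stood at 649 in K562 and 283 in HL60, and the downstream part at 1.37 in K562 and 35.2 in HL60. In ABL1 on chromosome 9, the first 2 covered stretches, from 130713016 to 130835525, held 138 footprint equivalents in K562 and 209 in HL60, or 197 and 147 after division by the library factors. The 10 from 130854064 to 130887675 held 630.03 in K562 and 279 in HL60, or 896 and 196 after division by the library factors.

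MTAP and its neighbour CDKN2A were covered differently. MTAP, an enzyme of methionine salvage beside CDKN2A on chromosome 9, was at 0 on all its exons in K562, against 47.9 TPM in HL60, where 10 exons held signal. CDKN2A, a cell cycle inhibitor gene, had signal in K562: it had 23 TPM in K562, on 3 exons, and 6.83 TPM in HL60, on 4. As background, K562 is often described as having lost this stretch of chromosome 9, and whether those K562 reads came from CDKN2A itself was not tested. MAT2B, of methionine use, was called higher in HL60, while PRMT5 had 76.0 TPM in K562 and 166 TPM in HL60, below the call.

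**Figure D4:**
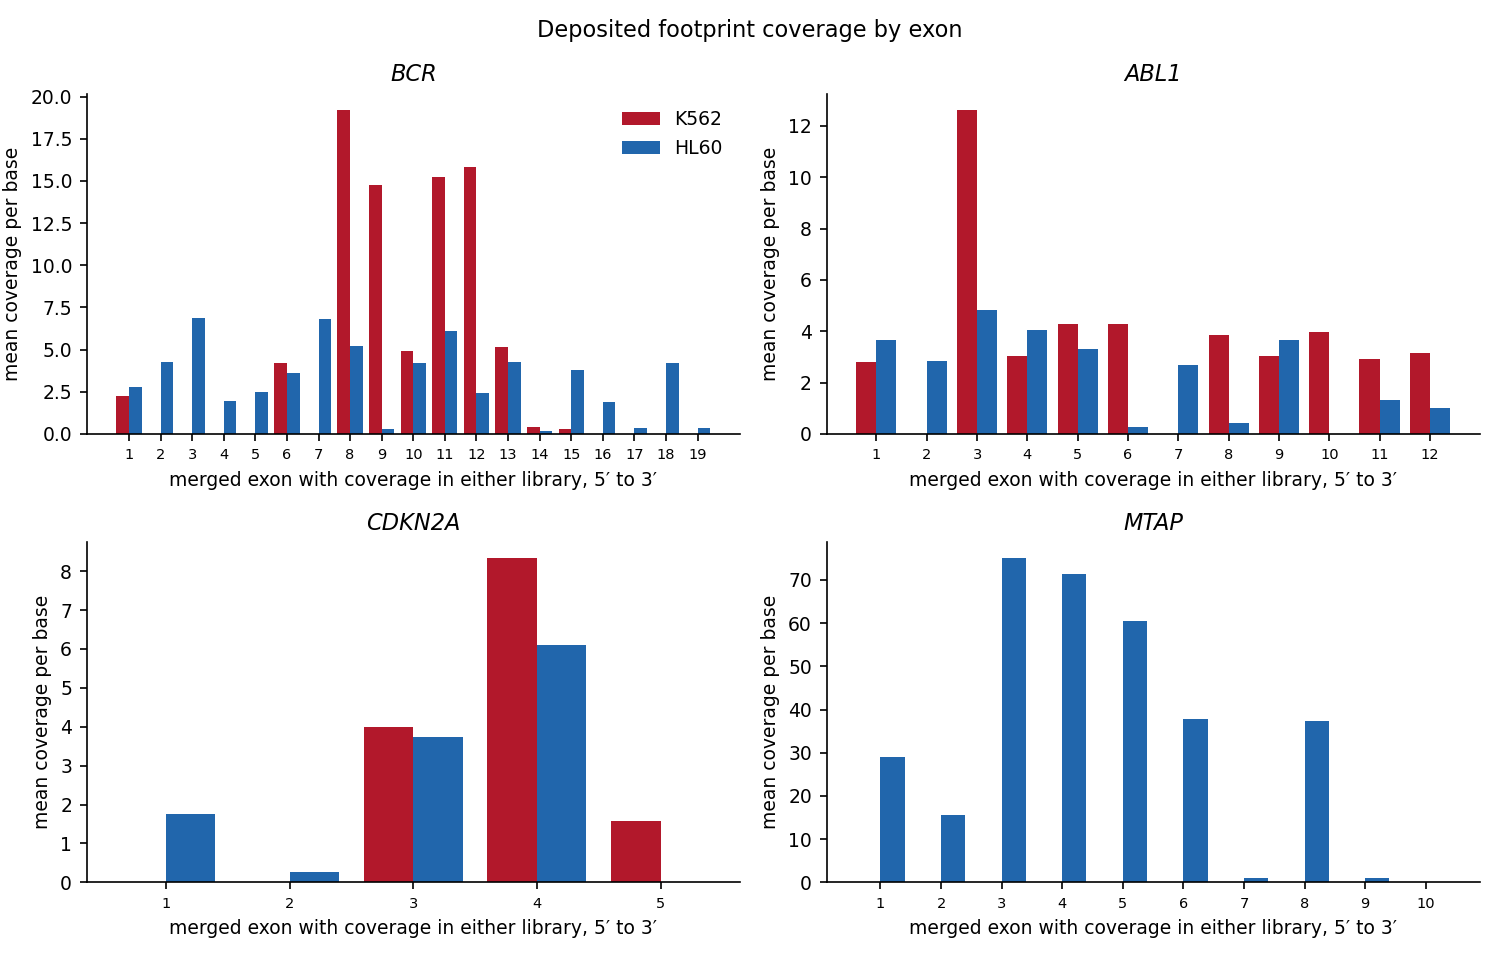
Mean deposited coverage per base, on the vertical axis, for each merged exon with signal in either library, numbered 5′ to 3′ along the horizontal axis, in K562 (red) and HL60 (blue) for BCR, ABL1, CDKN2A and MTAP. Coverage is not corrected for the deeper HL60 library. The last 4 BCR exons have blue bars only, CDKN2A has bars of both colours at exons 3 and 4, and MTAP has blue bars only.

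MYC, which HL60 carries in extra copies, had 190 TPM in K562 (95% interval 186 to 195) and 752 TPM in HL60 (746 to 758), a difference of -1.98 that just missed the call. PVT1, the lncRNA gene next to MYC, ran the other way, with 43.5 TPM in K562 and 1.68 TPM in HL60. Among BCL2 family genes 1 of 15 was called higher in K562 and 3 in HL60, beside 9.33% and 11.9% of all protein-coding genes. BCL2A1, an antiapoptotic member, and BIK, a proapoptotic member, were at 0 in K562, against 55.5 and 19 TPM in HL60. MCL1 had 32.2 TPM in K562 and 33.2 TPM in HL60.

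Homeobox genes of the B cluster were read in K562. Of 10 HOXB genes, 6 reached 1 TPM, all of them through K562 alone, so that their direction was fixed by that minimum, and 5 of these were called. HOXB4, a stem cell regulator, had 23 TPM in K562 and 0.321 TPM in HL60, and HOXB9 had 16.9 TPM in K562, against 0 in HL60. Of 11 genes of the A cluster and cofactors, 1 was called each way, and HOXA11 was at 0 in K562, against 5.94 TPM in HL60.

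Protein-coding genes called alike that follow each other among those compared formed 13 runs of at least 4, with 9 runs higher in K562 and 4 in HL60, 57 genes in all. How many runs the shares of called genes alone would give was not worked out. Some runs hold genes that overlap or closely resemble each other, so the run counts are descriptions. The K562 runs included the beta-globin cluster on chromosome 11, HOXB3 to HOXB9 on chromosome 17, the keratins KRT7, KRT81, KRT8 and KRT18 on chromosome 12, and AKR1C1, AKR1C2, AKR1C3 and NET1 on chromosome 10. AKR1C3, a ketosteroid reductase, had 270.4 TPM in K562 and 25.5 TPM in HL60, and its copies resemble it closely. A run of 5 on chromosome 22, PPM1F to PRAME, lay from 21919425 to 22559361. There were 3 runs on the X chromosome, made of TCEAL and BEX genes in one case and of MAGE family genes with neighbours in the others. The HL60 runs included PLPPR3, AZU1, PRTN3, ELANE and CFD on chromosome 19, the caspase genes CASP4 and CASP1 with neighbours on chromosome 11, and a run of TIMM8B, SDHD, IL18 and PTS, also on chromosome 11. SDHD, a subunit of succinate dehydrogenase that cells with respiration need, was listed at 0 in K562, against 62.1 TPM in HL60.

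Whole chromosomes also differed. On chromosome 8, 61 of 348 genes, 17.5%, were called higher in K562 and 22, or 6.32%, in HL60, with a median difference of 0.92. Chromosome 18 had a median of 0.54. At the other end chromosome 13 had a median of -0.53 and chromosome 5 of -0.51. Over genes at 10 TPM or more in both libraries, the medians were 0.71 for chromosome 8, -0.62 for chromosome 5 and -0.44 for chromosome 13. Copy number was not measured in these files.

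**Figure D5:**
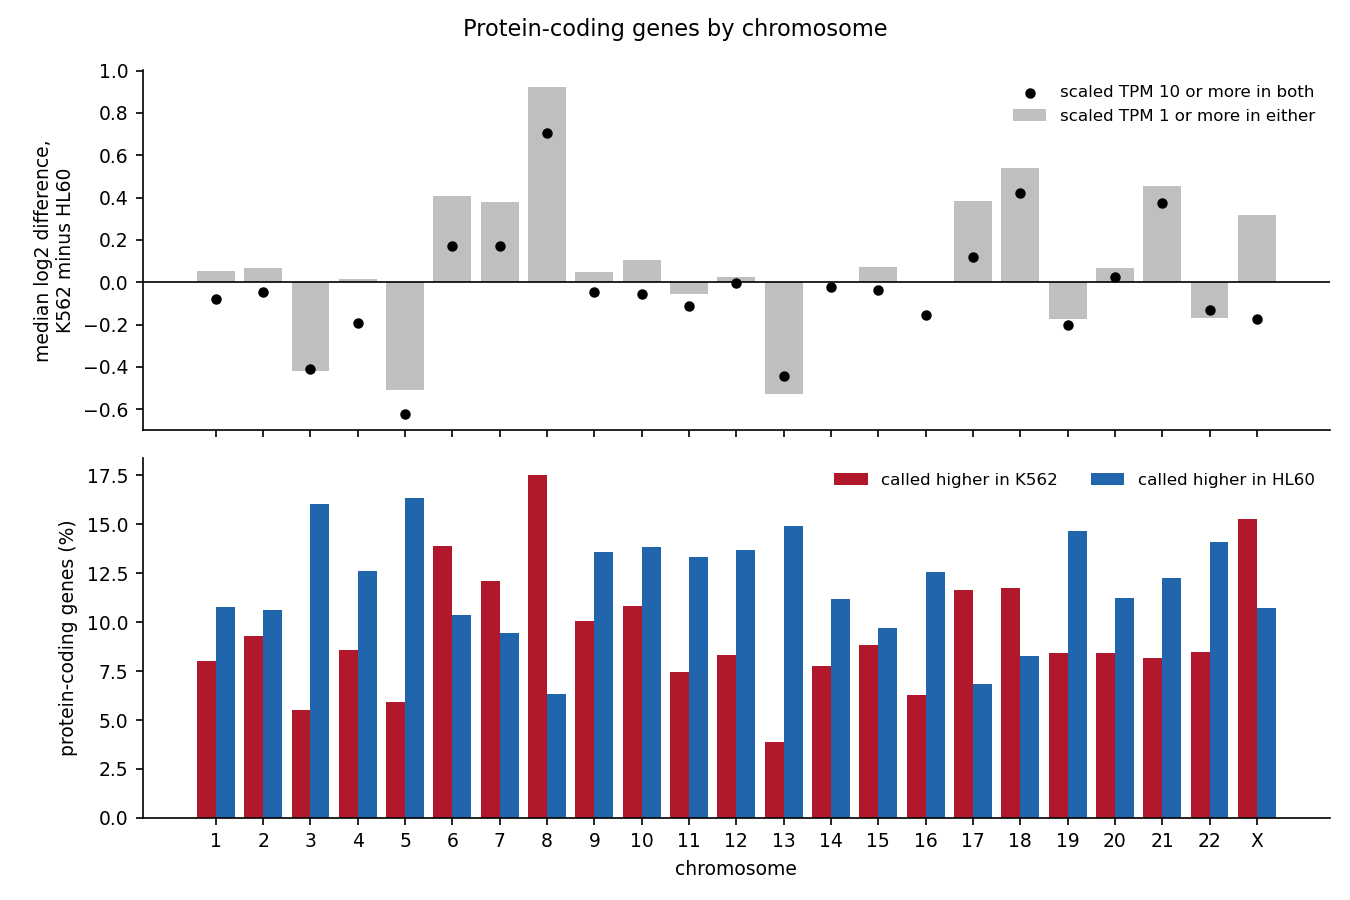
Upper panel: median difference in log2(scaled TPM + 1), K562 minus HL60, of protein-coding genes by chromosome, for genes at 1 TPM or more in either library (bars) and at 10 TPM or more in both (points). Lower panel: percentage of the genes behind the bars called higher in K562 (red) or HL60 (blue). Chromosome 8 has the highest median, 0.92, and chromosome 13 the lowest, -0.53.

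Other genes at the extremes of both libraries belong to few of these groups. ACSM3, a medium-chain fatty acid ligase, had 280.4 TPM in K562 and 3.01 TPM in HL60. ISYNA1, which makes inositol phosphate, had 72.8 TPM in K562 and 0.879 TPM in HL60, and TFPI, a coagulation inhibitor, had 61.2 TPM in K562 and 0.641 TPM in HL60. PRSS23, a secreted serine protease, had 85.1 TPM in K562 and 1.26 TPM in HL60, with 97.0% of its K562 bases on 1 exon. CMBL, a hydrolase, had 76.1 TPM in K562 and 1.48 TPM in HL60, and RFESD, a Rieske domain protein, had 63.3 TPM in K562 and 1.00 TPM in HL60. AL365205.1 and APOLD1, which share exons with other genes, had 59.5 and 46.4 TPM in K562, against 0.024 and 0.348 TPM in HL60. The span of AL365205.1 holds TOMM6 on the same strand, at 0 in K562, against 340 TPM in HL60. How reads were divided between AL365205.1 and TOMM6 was not tested. AL034430.2, which also shares exons, had 1.01 TPM in K562 and 172 TPM in HL60. NMU, a neuropeptide known to promote red cell growth, had 220.1 TPM in K562, and APOC1, an apolipoprotein, had 232 TPM, each against 0 in HL60. H3C7, a replication-dependent histone H3 gene, had 1128 TPM in K562 and 20.6 TPM in HL60. Other copies of histone H3 ran the other way: H3C4 held 0.0093% of coding aligned bases in K562 and 0.139% in HL60, and H3C11 held 0.0143% in K562 and 0.129% in HL60. The H3 genes encode the same or nearly the same protein, so the split of reads among them is uncertain. In HL60, AIF1, a calcium-binding protein of phagocytes, had 831 TPM, against 8.50 TPM in K562. MNDA, a myeloid nuclear antigen, was at 0 in K562, against 574 TPM in HL60. LIN7A, a scaffold protein, had 0.353 TPM in K562 and 136 TPM in HL60, and TNFSF13B, the cytokine BAFF, had 0.0238 TPM in K562 and 65.9 TPM in HL60.

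Shares of aligned bases, which weigh long and abundant coding regions, told which proteins took up the footprints. HBE1 held 0.793% of coding aligned bases in K562 and 0 in HL60, and the chaperone HSP90AB1 held 0.632% in K562 and 0.248% in HL60. ALDH1A1, a retinaldehyde dehydrogenase, had 829 TPM in K562 and 60.8 TPM in HL60. MPO held 0 in K562 and 2.20% in HL60, the largest difference of any gene. ENO1, a glycolytic enzyme, held 0.476% in K562 and 1.02% in HL60, and ACTB, beta-actin, held 0.325% in K562 and 0.888% in HL60. CLTC, the clathrin heavy chain, had 295 TPM in K562 and 136 TPM in HL60 and was not called.

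Metabolic and housekeeping lists differed in how many members were called, beside 9.33% of all protein-coding genes for K562 and 11.9% for HL60. Translation factors had 0 of 36 members called in either direction and a median of 0.04, which turns negative under 2 other scalings. Of 79 cytosolic ribosomal protein genes, 1 was called higher in K562 and 9 in HL60, with a median of -0.52, and 5 of the 79 were listed at 0 in K562. Glycolysis genes had 2 of 23 called higher in K562 and 1 in HL60, and the calls fell on hexokinase forms and on ENO2: HK1 had 88.9 TPM in K562 and 8.35 TPM in HL60, and HK3 was at 0 in K562, against 32.8 TPM in HL60. ENO2, the neuronal enolase, had 11.7 TPM in K562, against 0 in HL60. Cholesterol synthesis genes had 1 of 21 called higher in K562 and 4 in HL60. SQLE, the squalene epoxidase, had 130.4 TPM in K562 and 23 TPM in HL60, against a list median of -0.75. STARD4, a sterol carrier, was at 0 in K562, against 58.5 TPM in HL60.

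Among antioxidant genes 4 of 23 were called higher in K562 and 1 in HL60. PRDX2, the abundant red cell peroxiredoxin, had 517 TPM in K562 and 61.8 TPM in HL60. NQO1, a quinone reductase, had 258 TPM in K562 and 29.9 TPM in HL60. CAT, catalase, had 123 TPM in K562 and 1119 TPM in HL60, a difference of -3.18. All 13 mitochondrially encoded protein genes were higher in K562, although MT-CO1, a subunit of cytochrome oxidase, turns lower with deposited TPM. Of the 13, 1 was called, MT-ND6, a subunit of complex I, at 926 TPM in K562 and 198 TPM in HL60. The difference of MT-ND6 with deposited TPM was 1.94, below the call, and its reads cannot be told apart from those of transcripts on the opposite strand, since no strand option was used. Of 22 DNA replication licensing genes, 1 was called higher in K562, GINS4, at 41.5 TPM in K562 and 8.0 TPM in HL60. In aligned bases not divided by length the difference of GINS4 was 1.26, below the call. Of 16 cytarabine transport and nucleotide genes, 1 was called, CDA, the deaminase that inactivates cytarabine, at 0 in K562, against 16.9 TPM in HL60.

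Long non-coding RNA (lncRNA) genes were compared where they share no exon with another gene. Of 182 at 1 TPM or more in either library, 37 were called higher in K562, which is 20.3%, and 19 in HL60, which is 10.4%. With aligned bases not divided by length these counts were 15 and 14. AC104237.3, on chromosome 11, had 163 TPM in K562 (95% interval 154 to 173) and 5.24 TPM in HL60 (4.12 to 6.58). AC079466.1 had 39.2 TPM in K562, against 0 in HL60, and LINC01029 had 25.9 TPM in K562, against 0 in HL60. AC011445.1 had 27.4 TPM in K562 and 3.13 TPM in HL60, on 76.3 and 18 footprint equivalents. It lies within the span of GMFG, annotated on the same strand, and whether its reads are its own was not tested. EPS15-AS1 had 18.5 TPM in K562, against 0 in HL60. LINC01962, on chromosome 5, was at 0 in K562, against 211 TPM in HL60, with 99.9% of its aligned bases on 1 exon. GIHCG had 8.58 TPM in K562 and 38.2 TPM in HL60. AC125603.2, LINC00324 and LINC00926 were at 0 in K562, against 32.3, 15.9 and 9.35 TPM in HL60. Since no strand option was used, the strand of reads on antisense genes such as EPS15-AS1 is not known, although their exons overlap no annotated exon of another gene. A list of well-known nuclear and host lncRNA genes was described apart from these, also where its members share exons with other genes. Of 24 at 1 TPM or more, 5 were called higher in K562 and 0 in HL60. These were PVT1, SNHG8, HOTAIRM1, MEG3 and MIR17HG, of which PVT1, SNHG8, HOTAIRM1 and MEG3 share exons with another gene. SNHG8, a snoRNA host, had 583 TPM in K562 and 43.3 TPM in HL60, and HOTAIRM1, a lncRNA of the HOXA cluster, had 33.2 TPM in K562 and 3.54 TPM in HL60. MIR17HG, the host of a microRNA cluster that MYC activates, had 14.6 TPM in K562 and 1.95 TPM in HL60. MALAT1, a nuclear lncRNA, had 281 TPM in K562 and 82.3 TPM in HL60, below the call. As background, fragments on a lncRNA need not come from a translating ribosome, and this was not tested here.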

How the data were processed

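Ribosome footprint libraries of K562 and HL60 were used, and the other 2 libraries were not used here. The submitters' processing notes name StringTie 2.1.5 and STAR 2.7.8a, besides Bowtie2 2.4.2 and Trim Galore 0.6.6, and the hg38 build. Per the file headers, StringTie ran on read 1 after removal of rRNA, with no strand option. The authors deposited TPM, FPKM and coverage per transcript and coverage per exon on GENCODE release 37, per the file headers with its names. The files hold 60651 genes. Deposited TPM was summed per gene and divided by library factors (0.907 for K562, 1.10 for HL60), the median ratio over 4175 genes at a TPM of 10 or more in both. Aligned bases were coverage times length, with factors 0.703 and 1.42. Differences used a pseudocount of 1. Protein-coding and lncRNA types came from GENCODE release 29 for 58405 genes and from RefSeq by symbol for 55. Y-linked genes were left out, and some list members are not reported here. The calls were tested on simulated data.

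The members, gene lists and tests were chosen with earlier results of these data known. Genes named in the text were taken, in each direction, from the 10 called genes above 0 in both libraries with the largest difference, the 6 with the highest level listed at 0 in the other, the 6 with the largest difference in share, and the 5 lncRNA genes with the highest level. To these come genes from among the up to 4 members of each list with the largest difference, and members that ran against its median by over 1. Genes outside this rule (list members given for contrast, members of runs, ELANE, PRTN3, ABL1, BCR, CDKN2A, NDUFA4 and TOMM6 among them) were chosen after their values were seen. Promoters are from RefSeq (GRCh38.p14), and motif shares leave out chromosome 8. Work was done with SciPy 1.17.1, pandas 2.3.3 and NumPy 2.4.6 in Python 3.11.15, and figures with Matplotlib 3.10.9. Alternatives were other scalings, aligned bases, pseudocounts of 0.1 and 5, differences of 1 and 3, minimums of 200 and 2000 bases, and leaving out genes listed at 0.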

Additional observations from a re-analysis of the deposited data

How the results depend on the processing

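No paired analysis was possible because each line has 1 library, and no replicate could be left out. The counts of genes called higher in K562 and in HL60 were 980 and 1252 for protein-coding genes and 37 and 19 for lncRNA genes, in that order below. A pseudocount of 0.1 gave 1932 and 2247, and 84 and 67, while a pseudocount of 5 gave 294 and 502, and 5 and 3. A difference of 1 gave 2565 and 2630, and 82 and 48, and a difference of 3 gave 382 and 698, and 11 and 9. Without the genes that 1 library lists at 0, the counts were 595 and 347, and 12 and 1, so that the side with more protein-coding calls turned to K562. Aligned bases not divided by length gave 15 and 14 lncRNA genes, against 37 and 19. With TPM rescaled over nuclear protein-coding genes the protein-coding counts were 1255 and 1113, so that K562 again had more calls. Other scalings moved the protein-coding counts to between 828 and 1255 for K562 and between 1113 and 1444 for HL60. The median difference over all protein-coding genes was 0.06, -0.19 with deposited TPM, 0.40 with TPM rescaled over protein-coding genes and -0.06 with the median ratio over genes at TPM 1 or more. Leaving out genes that share exons on the same strand, an alternative chosen after the data were seen, gave 809 and 996 protein-coding calls. A selected set of single genes, and not all genes, was also followed through the settings applied to it. In that set, 72 values of called genes lost the call and 45 of genes not called gained it. No called gene of that set changed sign. With rescaling over protein-coding genes, DNAJB11, GIHCG, IFITM3, INSIG1, MAGEB2 and P4HB of that set lost their calls. In aligned bases not divided by length, the differences of SNHG8, GIHCG and MAT2B were 1.86, -1.34 and -1.80, each below the call. The depth of 600 aligned bases, 20.7 footprint equivalents, limits what can be called among genes of low level.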
